A study of Rattus norvegicus with 72 samples.

Results

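Mammary glands of lactating rats were compared here with mammary glands of pregnant rats, with both groups kept in hypergravity, the condition of raised gravity in this series. The arrays were chosen by their labels, mammary_lac_hyperG and mammary_preg_hyperG, and 9 of the 72 arrays of the series were used. Of these, 4 came from lactating rats (M203H, M206H, M212H and M217H) and 5 from pregnant rats (M50H, M55H, M56H, M59H and M60H), and values are given in that order below. A further array labelled as lactating mammary gland in hypergravity, M210H, was left out because its marker genes went against its label. The series also holds liver and adipose tissue, standard gravity and microgravity, of which only the 10 mammary arrays at standard gravity (5 lactating, 5 pregnant) were used, to set the stage difference beside its counterpart. Hypergravity was shared by both groups compared. Strain, age, day of pregnancy or lactation, gravity level and length of exposure were not given in the labels used here. Each title carries its own rat code, so each array was taken as a separate rat. The p-values measure only the spread between arrays, pooled over these 9 arrays and the 10 standard gravity arrays.

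The mammary gland builds its milk-making lobules during pregnancy under progesterone, prolactin and paracrine signals such as RSPO1, and switches to full milk secretion around birth, when progesterone falls and prolactin acts through STAT5. The secreting epithelium then takes up glucose, amino acids, calcium and zinc, makes casein, lactose and fat, and exports them. When milk is no longer removed, the gland involutes, with STAT3 signalling, lysosomal proteases and acute-phase proteins among the known players.

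Each value is an RMA log2 signal of a probe set, the short probes that read out 1 transcript, so a difference of 1 is a 2-fold change. A gene is represented by its brightest probe set with a single symbol, and a gene is called changed where limma's adjusted p is under 0.05 over all 31042 probe sets. Array medians lay between 4.44 and 4.56 and upper quartiles between 7.02 and 7.17 over the 9 arrays. The milk protein list averaged 12.94 to 13.02 in the lactating and 12.64 to 12.89 in the pregnant arrays against 3.11 in M210H, whose adipocyte markers averaged 10.16. Markers of 3 other tissues or cell types stood out in 4 of the 9 hypergravity arrays. The hepatocyte list (18 genes, Cyp2c11 the lowest in M56H at 2.47) averaged 9.31 in M56H and 3.35 to 3.67 on the other hypergravity arrays. The skeletal muscle list (17 genes) averaged 8.05 in M50H and 7.63 in M212H, against 3.99 to 4.34 in the other hypergravity arrays. Its member Myh1 was not raised there, at 10.14 in M50H and 10.83 in M212H against 10.31 to 11.32 in the other arrays used. The T and B lymphocyte list (11 genes) averaged 6.76 in M60H, 4.64 to 5.15 in the other pregnant arrays and 4.17 to 4.48 in the lactating arrays. Results were recomputed without M56H, M50H and M212H, and also without these and M60H, called the 4 marked arrays below. At standard gravity the same lists were raised on single arrays too, to lower levels, and these arrays stay in without the 4 marked arrays. The hepatocyte list averaged 6.23 in M52S and 5.09 in M57S against a median of 3.43 in the pregnant standard gravity arrays. The muscle list averaged 5.33 in M44S against 4.30 in the same group. The lymphocyte list averaged 6.18 in M219S against 4.24 in the lactating standard gravity arrays. It stood further above its group median there than in M60H, whose group median was 5.11. Results were therefore also recomputed without these 4, called the marked standard gravity arrays, which leaves 2 pregnant and 4 lactating arrays there. This setting was chosen after seeing the data. In such bulk tissue, fewer cells of a type and less RNA per cell cannot be told apart.

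**Figure D1:**
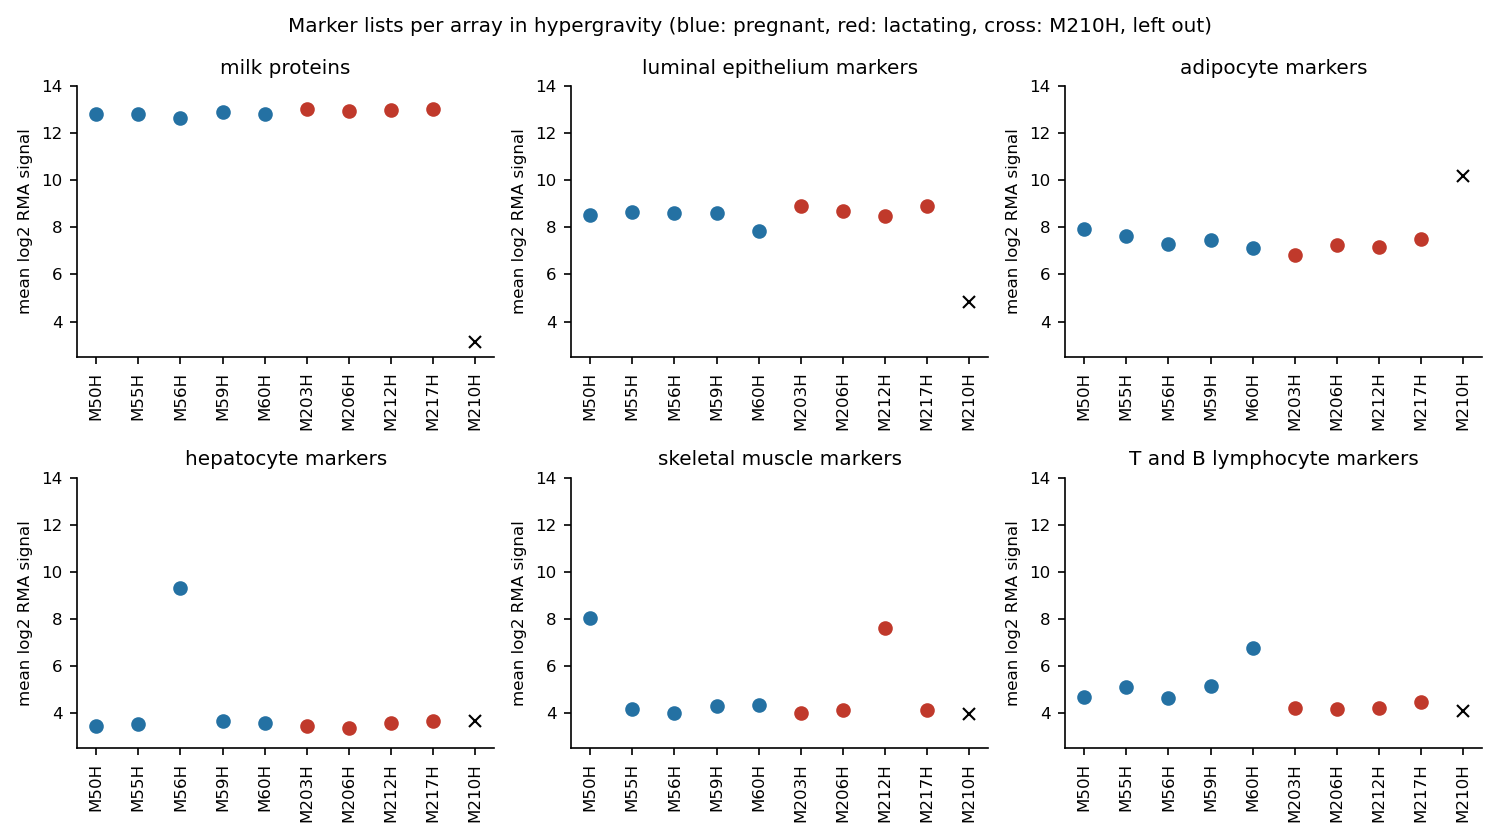
Mean log2 RMA signal of 6 marker lists (vertical axis) on each hypergravity mammary array (horizontal axis); blue points are pregnant, red points lactating, and the cross is M210H, which was left out. Hepatocyte markers stand at 9.31 in M56H, muscle markers at 8.05 in M50H and 7.63 in M212H, lymphocyte markers at 6.76 in M60H, and milk protein signal is at 3.11 in M210H.

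The plot of marker lists shows that milk protein levels were alike in the 9 arrays used and luminal epithelium levels ran from 7.83 to 8.92, while single arrays stood out for hepatocyte, muscle and lymphocyte genes. In all, 4540 probe sets were higher in lactation (14.6% of 31042) and 4540 lower (14.6%). Counted by gene, 1865 of 14217 were higher (13.1%) and 3065 lower (21.6%), with a median difference of -0.12 on the log2 scale. The list counts below are to be read beside these shares of all genes. The 4 lactating arrays lay wholly above the 5 pregnant arrays for 1250 genes (8.79%) and wholly below for 1819 (12.8%). Of the 4930 called genes, 3443 stayed called when each array was left out in turn. The pregnant group was the more variable, with a median within-group SD of 0.42 against 0.22 in the lactating group. At standard gravity this SD was 0.24 in the lactating and 0.28 in the pregnant arrays. The main fit pools the spread of all these groups, so it can understate the spread of the pregnant hypergravity arrays. A fit of the 9 arrays alone gave 2989 higher and 2934 lower probe sets. That fit also rests on fewer arrays, so the part of the unequal spread was not tested. M56H was the lowest pregnant array in 71.8% of the lower genes, against 34.6% of all genes, and the highest in 53.1% of the higher genes, against 17.4% of all genes. M60H was the lowest pregnant array in 52% of the higher genes, against 24.7% of all genes. It also had the lowest pregnant level in 22 of the 42 gene lists used below. Ribosomal protein genes averaged 10.82 in M60H against a group median of 11.34, and oxidative phosphorylation genes 8.78 against 9.47. The part of this low array in the rises was not tested beyond leaving it out. The part of the liver, muscle and lymphocyte RNA in these values was not tested.

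The gene with the largest rise among the called genes whose arrays did not overlap was S100a8, a calcium-binding protein of neutrophils and of stressed epithelium (GRCr8 chr2:178464095-178465223). It read 11.37, 10.63, 9.58 and 8.55 in the lactating arrays and 4.87, 4.19, 5.22, 4.56 and 3.60 in the pregnant arrays. Every lactating array lay over 3 units above the highest pregnant array, and the log2 difference was 5.54 ± 0.51 (SE), 46.7-fold higher, adjusted p = 1.6e-06. Its partner S100a9 read 9.37, 8.35, 6.79 and 6.25 in lactation and 5.64, 5.22, 4.98, 5.49 and 5.30 in pregnancy (log2 difference 2.36 ± 0.49 (SE), 5.14-fold higher, adjusted p = 0.0018). M203H was the highest array for both partners, and neither gene's groups overlapped. Of 8 measured neutrophil markers these 2 rose and Il1r2, a decoy receptor for interleukin 1, fell (log2 difference -1.58 ± 0.39 (SE), 2.98-fold lower, adjusted p = 0.0058). The list median was 0.03. Fitted on the 9 arrays alone, or with a filter on low values, 0 neutrophil markers fell.

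Secreted antimicrobial genes were among those furthest apart. Lao1, an L-amino acid oxidase that makes hydrogen peroxide in milk (GRCr8 chr5:137859033-137868926), read 8.88, 10.08, 8.73 and 10.05 in lactation and 4.42, 4.60, 3.77, 4.23 and 4.22 in pregnancy (log2 difference 5.19 ± 0.39 (SE), 36.5-fold higher, adjusted p = 2.0e-07). Wfdc18, a secreted whey acidic protein family member, read 10.48, 8.37, 4.92 and 7.96 against 3.42, 3.35, 3.08, 3.07 and 3.67 (log2 difference 4.61 ± 0.66 (SE), 24.5-fold higher, adjusted p = 1.0e-04). M212H was the lowest lactating array for Wfdc18 yet above all pregnant arrays. Defb1, a beta-defensin, read 8.71, 7.16, 6.46 and 6.37 against 4.10, 3.41, 3.64, 3.58 and 3.33 (log2 difference 3.56 ± 0.38 (SE), 11.8-fold higher, adjusted p = 8.5e-06). In the opposite direction Wfdc10a, another gene of the whey acidic protein family, read 3.62, 3.54, 4.36 and 4.06 against 9.02, 10.22, 9.43, 7.55 and 7.55 (log2 difference -4.86 ± 0.55 (SE), 29-fold lower, adjusted p = 1.4e-05). The groups did not overlap for any of these 4 genes, and M203H was the highest lactating array for Wfdc18 and Defb1. Of 16 measured host defence genes 5 rose and 4 fell, with a median of 0.20 beside -0.12 for all genes. Without M203H the fallen genes numbered 2. Lyz2, a lysozyme shared with the macrophage list, was among those that fell (log2 difference -1.51 ± 0.32 (SE), 2.85-fold lower, adjusted p = 0.0022).

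**Figure D2:**
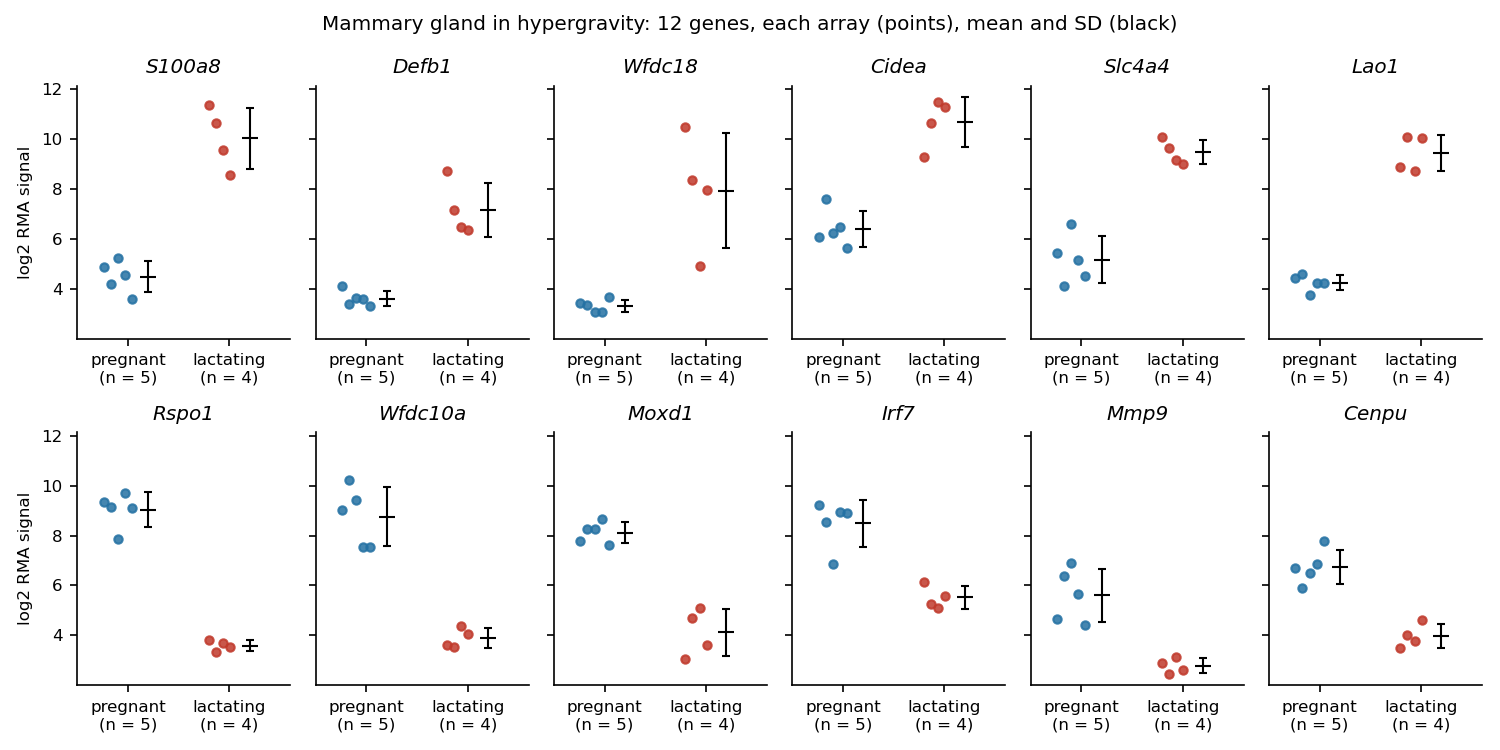
Log2 RMA signal (vertical axis) of 12 genes in the 5 pregnant (blue) and 4 lactating (red) hypergravity arrays; points are arrays, black bars the mean and SD. The groups do not overlap in any panel; S100a8, Lao1 and Cidea lie higher in lactation and Rspo1, Wfdc10a and Cenpu lower, with M212H the low lactating point of Wfdc18 at 4.92.

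The largest fall belonged to Rspo1, the R-spondin that ductal luminal cells secrete under progesterone and that amplifies Wnt signalling (GRCr8 chr5:142536162-142557611). It read 3.81, 3.33, 3.70 and 3.53 in lactation and 9.36, 9.13, 7.86, 9.71 and 9.10 in pregnancy. The lowest pregnant array, M56H, was still over 4 units above every lactating array, and the log2 difference was -5.44 ± 0.27 (SE), 43.4-fold lower, adjusted p = 3.3e-09. Calca, which encodes calcitonin and its related peptide and is induced by progesterone in the gland, read 2.83, 2.80, 2.47 and 2.64 against 5.88, 5.39, 3.56, 7.81 and 6.81 (log2 difference -3.21 ± 0.58 (SE), 9.22-fold lower, adjusted p = 6.2e-04). Areg, the EGF-family ligand downstream of the oestrogen receptor, also fell (log2 difference -1.12 ± 0.21 (SE), 2.17-fold lower, adjusted p = 8.5e-04). Gata3, the transcription factor of luminal identity, rose (log2 difference 1.34 ± 0.34 (SE), 2.53-fold higher, adjusted p = 0.0066). The receptors themselves did not pass the test, with Esr1 at 0.05, adjusted p = 0.76 and Pgr at -0.30, adjusted p = 0.17. Pgr read 2.77 to 2.88 in the pregnant arrays other than M59H, which lay 0.54 above the nearest. All lay below the array medians of 4.44 to 4.56, which leaves little room to read a fall of Pgr. Of 15 measured genes of hormone sensing and paracrine signalling 1 rose and 5 fell (median -0.24). Leaving out a single array gave up to 3 risen genes (3 without M55H, 2 without M56H, 2 without M42S), and without the 4 marked arrays 0 rose. In the fit without the 4 marked arrays adjusted p became 0.1 for Gata3. With all probe sets of a gene averaged, the log2 difference was -1.29 for Calca.

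Other leading genes covered several roles. Among those that rose, Cidea, which binds to lipid droplets and is needed for milk fat secretion, read 9.27, 10.63, 11.47 and 11.30 against 6.07, 7.60, 6.22, 6.46 and 5.63 (log2 difference 4.27 ± 0.43 (SE), 19.3-fold higher, adjusted p = 5.0e-06). Folr1, a folate receptor, read 6.69, 7.25, 7.75 and 7.95 against 3.27, 5.57, 3.36, 3.10 and 3.52 (log2 difference 3.65 ± 0.48 (SE), 12.5-fold higher, adjusted p = 4.8e-05), with M55H high among the pregnant arrays. Lratd1 (log2 difference 3.92 ± 0.36 (SE), 15.2-fold higher, adjusted p = 1.7e-06) and Sectm1b (log2 difference 3.73 ± 0.72 (SE), 13.3-fold higher, adjusted p = 0.001) also rose, as did Oga, the enzyme that removes O-linked N-acetylglucosamine (log2 difference 3.69 ± 0.89 (SE), 13-fold higher, adjusted p = 0.0049). The lactating arrays did not overlap the pregnant arrays for these 5 genes, although Oga spread widely over the pregnant arrays, from 3.42 in M60H to 7.90 in M55H and higher still in M56H. The gene Pincl rose too (log2 difference 3.90 ± 0.66 (SE), 15-fold higher, adjusted p = 3.8e-04). Among those that fell, Moxd1, a monooxygenase-like protein, read 3.06, 4.68, 5.11 and 3.63 against 7.79, 8.26, 8.27, 8.65 and 7.62 (log2 difference -4.00 ± 0.35 (SE), 16-fold lower, adjusted p = 7.8e-07). Atp6v1c2, a subunit of the proton pump of vesicles, read 5.08, 5.77, 5.87 and 5.48 against 9.08, 9.41, 8.95, 9.30 and 9.03 (log2 difference -3.60 ± 0.19 (SE), 12.1-fold lower, adjusted p = 3.6e-09). Both groups were tight for Atp6v1c2, with SDs of 0.35 and 0.19. Gpr37l1 (-3.56, adjusted p = 2.2e-07), Obsl1 (-3.43, adjusted p = 6.1e-05), Drd4 (-3.43, adjusted p = 5.7e-04), Scara3 (-3.39, adjusted p = 1.7e-05), Tbc1d10c (-3.39, adjusted p = 5.1e-04), Tecpr1 (-3.39, adjusted p = 2.4e-04) and Zbtb40 (-3.38, adjusted p = 1.3e-05) completed the 12 largest falls, and M56H was the lowest pregnant array for 6 of these 7. The log2 difference of Sectm1b was 2.48 without the 4 marked arrays. The mean over all probe sets of a gene gave a log2 difference of 1.65 for Oga, -1.42 for Drd4, -2.02 for Tecpr1 and -1.54 for Zbtb40.

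Milk protein genes were already near the top of the arrays' range in pregnancy. The highest signal of any probe set was 13.13 to 13.38 on these 9 arrays. Csn2 (beta-casein) read 12.97, 12.79, 12.88 and 12.78 in lactation and 12.67, 12.72, 12.78, 12.90 and 13.05 in pregnancy, and the groups overlapped (log2 difference 0.03, adjusted p = 0.86). Csn1s1 (-0.01, adjusted p = 0.94) and Wap, whey acidic protein (-0.01, adjusted p = 0.95), overlapped likewise. Lalba, alpha-lactalbumin, the regulatory subunit of lactose synthase, read 13.24, 13.31, 13.27 and 13.35 against 11.85, 12.52, 11.73, 12.31 and 11.37. All 4 lactating arrays lay close together and above every pregnant array, close to the highest signals these arrays gave, so the difference is read as a lower bound (log2 difference at least 1.34, at least 2.52-fold higher, adjusted p = 0.0026). Lalba was the only 1 of 6 measured milk protein genes called, and the list median was -0.01. In the fit without the 4 marked arrays 0 were called. Signals this close to the top leave little room to read a rise. Adjusted p rose without the 4 marked arrays to 0.11 for Lalba.

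Some genes of prolactin and STAT5 signalling rose, but its receptor was not called. Prlr, the prolactin receptor, read 6.33, 7.70, 7.96 and 7.68 against 6.77, 8.47, 7.96, 6.74 and 5.15 and was not called (log2 difference 0.40, adjusted p = 0.64). Stat5a, its main transcription factor, read 9.60, 10.10, 10.72 and 9.83 against 7.58, 9.84, 10.11, 7.54 and 5.65 (log2 difference 1.92 ± 0.65 (SE), 3.78-fold higher, adjusted p = 0.032). The lactating arrays were alike for Stat5a, and the pregnant arrays ran from 5.65 to 10.11 with M59H and M60H low. Elf5, which drives alveolar differentiation, was not called (log2 difference -0.50, adjusted p = 0.17). Insr, the insulin receptor, rose with no overlap (log2 difference 1.68 ± 0.21 (SE), 3.2-fold higher, adjusted p = 3.6e-05), and Nfib, a factor that works with STAT5, rose as well (log2 difference 1.87 ± 0.54 (SE), 3.67-fold higher, adjusted p = 0.014). Of 17 measured genes of prolactin and STAT5 signalling 5 rose (29.4% against 13.1% of all genes) and 1 fell (5.88% against 21.6%), with a median of -0.03. The count of risen genes was 3 without the 4 marked arrays and without each of M212H, M217H, M50H, M59H and M60H, and the fallen gene was lost without M203H, M212H, M217H, M50H, M59H or M60H and joined by another without M56H. Without the 4 marked arrays adjusted p was 0.14 for Stat5a. Fitted on the 9 arrays alone, adjusted p was 0.14 for Stat5a and 0.062 for Nfib. Without the marked standard gravity arrays adjusted p was 0.071 for Stat5a. The call of Stat5a ended without M206H (0.065), M212H (0.094), M217H (0.052), M50H (0.072), M59H (0.075) and M60H (0.073), adjusted p in parentheses.

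Several transporters for milk ions rose. Of 20 measured genes of calcium, phosphate and anion transport 9 rose (45% against 13.1% of all genes, and 5 genes without the 4 marked arrays) and 3 fell, with a median of 0.47 beside -0.12. Slc4a4, a sodium bicarbonate cotransporter, read 10.07, 9.64, 9.15 and 9.02 against 5.45, 4.11, 6.59, 5.16 and 4.53 (log2 difference 4.30 ± 0.49 (SE), 19.7-fold higher, adjusted p = 1.4e-05). Car6, a secreted carbonic anhydrase, read 7.30, 7.57, 9.19 and 7.40 against 3.64, 4.21, 4.08, 3.54 and 3.95 (log2 difference 3.98 ± 0.44 (SE), 15.8-fold higher, adjusted p = 1.2e-05), with M212H the highest. Atp2b2, the plasma membrane calcium pump that exports calcium into milk, read 3.30, 5.19, 7.87 and 6.64 against 2.81, 3.24, 2.70, 3.04 and 2.93 (log2 difference 2.81 ± 0.56 (SE), 7-fold higher, adjusted p = 0.0014). Its lactating arrays were widely spread but all above the pregnant arrays. The other 6 risen genes were the calcium pumps Atp2b1, Atp2c1, Atp2c2 and Atp2a2, the phosphate transporter Slc34a2 and the chloride cotransporter Slc12a2, with log2 differences of 0.42 to 1.35. The 3 that fell were Stim1, Slc20a1 and Car2, at -0.86, -0.81 and -1.22, and only 1 fell without M203H, M50H or M59H. Averaged over all its probe sets Stim1 turned to 0.17 and was not called. The mean over all probe sets of a gene gave a log2 difference of 2.60 for Slc4a4 and 1.39 for Atp2b2.

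Zinc handling changed in both directions. Slc30a2, the transporter that loads zinc into secretory vesicles, read 3.05, 3.28, 2.69 and 3.03 against 6.13, 7.25, 6.43, 6.94 and 6.19. Every lactating array lay below every pregnant array (log2 difference -3.57 ± 0.21 (SE), 11.9-fold lower, adjusted p = 1.5e-08). Slc30a5 (log2 difference 1.63 ± 0.28 (SE), 3.1-fold higher, adjusted p = 4.6e-04), Slc39a1 (log2 difference 1.13 ± 0.22 (SE), 2.19-fold higher, adjusted p = 0.0011) and Slc39a10 (log2 difference 1.04 ± 0.27 (SE), 2.05-fold higher, adjusted p = 0.0086), zinc carriers of the secretory pathway and the plasma membrane, rose without overlap. Mt2A, a metallothionein that binds zinc, did not pass the test (log2 difference 0.14, adjusted p = 0.85). Of 12 measured metallothioneins and zinc transporters 5 rose and 1 fell (median 0.20). Amino acid carriers also moved. Slc1a1, a glutamate carrier, read 9.64, 7.79, 7.05 and 8.29 against 5.71, 4.68, 5.31, 5.18 and 3.81 (log2 difference 3.26 ± 0.49 (SE), 9.55-fold higher, adjusted p = 1.5e-04), and the neutral amino acid carriers Slc1a4 (log2 difference 2.29 ± 0.26 (SE), 4.88-fold higher, adjusted p = 1.4e-05) and Slc7a5 (log2 difference 1.42 ± 0.23 (SE), 2.68-fold higher, adjusted p = 2.4e-04) rose. Of 21 measured amino acid transporters 5 rose and 3 fell (median 0.23), and 1 fell without M203H. Slc2a1, the main glucose transporter of the gland, rose. It read 11.34 to 11.38 in M203H, M206H and M217H and higher in M212H, against 9.85, 11.17, 10.85, 9.84 and 8.51 in pregnancy (log2 difference 1.47 ± 0.38 (SE), 2.77-fold higher, adjusted p = 0.0069). Pgm1, which interconverts glucose phosphates on the way to lactose, rose less (log2 difference 0.77 ± 0.22 (SE), 1.7-fold higher, adjusted p = 0.014). These were the 2 risen genes of 11 measured for glucose uptake and lactose synthesis, 1 fell (0 without M203H, M206H, M212H, M217H, M50H or M59H) and the median was -0.14. The counts were 1 risen and 3 fallen without the 4 marked arrays. Leaving out the 4 marked arrays gave adjusted p of 0.072 for Slc2a1. A fit of these 9 arrays alone gave 0.059 for Slc2a1 and 0.095 for Pgm1. Without M60H the log2 difference of Pgm1 was 0.51. Averaged over all its probe sets, the log2 difference was 1.22 for Pgm1.

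Some genes of lipid synthesis fell. Srebf1, the master regulator of fatty acid synthesis, read 5.43, 7.38, 8.52 and 6.07 against 10.12, 10.33, 9.87, 10.48 and 9.32 (log2 difference -3.18 ± 0.47 (SE), 9.05-fold lower, adjusted p = 1.3e-04). Acaca, the committed enzyme of fatty acid synthesis, read 7.53, 8.97, 9.97 and 9.64 against 10.63, 10.88, 9.75, 10.62 and 10.88 and fell (log2 difference -1.53 ± 0.36 (SE), 2.88-fold lower, adjusted p = 0.004), although M212H lay above M56H and made the groups overlap. Fads1, a desaturase, fell (log2 difference -1.22 ± 0.31 (SE), 2.34-fold lower, adjusted p = 0.0069), and Acacb, the mitochondrial relative of Acaca, rose (log2 difference 1.37 ± 0.26 (SE), 2.58-fold higher, adjusted p = 0.001). Of 19 measured genes of fatty acid synthesis 1 rose (5.26% against 13.1% of all genes) and 5 fell (26.3% against 21.6%; median -0.30), and 2 rose without M203H, M206H, M55H or M60H. Of 16 measured genes of milk fat synthesis and secretion 1 rose (6.25%) and 6 fell (37.5%; median -0.14). The riser was Cidea, joined by 1 to 3 others without M203H, M55H or M56H. Slc27a3, a fatty acid carrier and acyl-CoA synthetase, fell (log2 difference -2.22 ± 0.37 (SE), 4.66-fold lower, adjusted p = 3.7e-04), as did Gpat4, which starts triglyceride assembly (log2 difference -1.10 ± 0.22 (SE), 2.15-fold lower, adjusted p = 0.0012), and Fabp3, the fatty acid binding protein of milk-making cells (log2 difference -1.38 ± 0.42 (SE), 2.6-fold lower, adjusted p = 0.019). The fit of the 9 arrays alone gave adjusted p of 0.066 for Fads1 and 0.12 for Fabp3. Without M203H the log2 difference of Fads1 was -0.73. Without M203H the log2 difference of Fabp3 was -0.68. With all probe sets of a gene averaged, the log2 difference was -1.57 for Srebf1, -1.10 for Slc27a3 and -0.56 for Gpat4.

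More sterol synthesis genes rose than fell. Insig1, the sterol-sensing anchor of SREBP, read 10.64, 10.62, 10.06 and 10.60 against 7.81, 8.53, 10.47, 7.72 and 6.47 (log2 difference 2.28 ± 0.56 (SE), 4.86-fold higher, adjusted p = 0.0053). Srebf2, which encodes the sterol SREBP, rose (log2 difference 1.87 ± 0.48 (SE), 3.64-fold higher, adjusted p = 0.0076), and so did Cyp51, a demethylase of the pathway (log2 difference 2.02 ± 0.48 (SE), 4.06-fold higher, adjusted p = 0.0044). Hsd17b7, another enzyme of the pathway, fell (log2 difference -1.42 ± 0.31 (SE), 2.67-fold lower, adjusted p = 0.0023). Of 19 measured genes 6 rose (31.6% against 13.1% of all genes) and 2 fell (10.5% against 21.6%), with a median of 0.12. Without M217H 1 fell, and without the 4 marked arrays 7 rose and 0 fell. In the fit of the 9 arrays alone 3 rose and 1 fell. Among 23 measured genes of fatty acid oxidation and PPAR targets 2 rose (8.7%) and 4 fell (17.4%; median 0.09). Pdk4, the kinase that shuts pyruvate out of the citric acid cycle in fasting, read 9.90, 10.40, 10.16 and 10.13 against 6.82, 8.26, 5.65, 7.13 and 6.86 (log2 difference 3.20 ± 0.58 (SE), 9.2-fold higher, adjusted p = 6.2e-04). Its relative Pdk2 fell (log2 difference -1.36 ± 0.34 (SE), 2.57-fold lower, adjusted p = 0.0055), as did Cpt2 of the mitochondrial fatty acid shuttle (log2 difference -0.95 ± 0.22 (SE), 1.94-fold lower, adjusted p = 0.0036). The risen genes numbered 4 without M55H and 1 without M206H, M212H, M217H, M59H or M60H, and the fallen genes 2 without M203H, M217H or M59H. Among the 7 AMPK subunits, which form an energy-sensing kinase, Prkaa1 rose (log2 difference 1.02 ± 0.19 (SE), 2.03-fold higher, adjusted p = 8.7e-04), Prkaa2 rose (log2 difference 2.92 ± 0.78 (SE), 7.57-fold higher, adjusted p = 0.0089) and Prkab1 fell (log2 difference -1.90 ± 0.36 (SE), 3.74-fold lower, adjusted p = 9.5e-04), joined by 1 more without the 4 marked arrays. Without the 4 marked arrays adjusted p was 0.059 for Hsd17b7. Fitted on the 9 arrays alone, adjusted p was 0.053 for Srebf2. The mean over all probe sets of a gene gave a log2 difference of 0.97 for Srebf2, -0.87 for Hsd17b7, -0.49 for Pdk2 and 0.37 for Prkaa1.

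Part of the cell division genes fell. Of 24 measured mitosis genes 9 fell and 0 rose (37.5% fell against 21.6% of all genes), with a median of -0.72. Of 18 measured DNA replication genes 8 fell and 0 rose (median -0.86). For 6 of the mitosis genes and 6 of the replication genes the call held without each array in turn, and without the 4 marked arrays 3 mitosis genes and 6 replication genes fell. Cenpu, a centromere protein, read 3.48, 4.01, 3.77 and 4.62 against 6.68, 5.89, 6.49, 6.84 and 7.77 (log2 difference -2.77 ± 0.40 (SE), 6.81-fold lower, adjusted p = 1.2e-04). Ccna2, cyclin A, read 3.20, 3.37, 4.85 and 4.18 against 6.61, 5.26, 5.80, 6.37 and 7.02 (log2 difference -2.31 ± 0.50 (SE), 4.97-fold lower, adjusted p = 0.0024). Ccnb2, a B-type cyclin, read 4.47, 4.43, 5.62 and 7.14 against 7.52, 7.35, 6.80, 7.36 and 7.20 (log2 difference -1.83 ± 0.45 (SE), 3.56-fold lower, adjusted p = 0.0055). M203H and M206H were lowest for Ccnb2, while M217H overlapped the pregnant arrays. Among replication genes Mcm7, part of the helicase, read 6.56, 7.06, 7.09 and 7.39 against 9.26, 9.11, 8.21, 9.19 and 9.20 (log2 difference -1.97 ± 0.29 (SE), 3.91-fold lower, adjusted p = 1.2e-04), with M56H the lowest pregnant array. Cdc45, which starts the helicase (log2 difference -1.88 ± 0.43 (SE), 3.68-fold lower, adjusted p = 0.0036), and Rfc4, which loads the sliding clamp (log2 difference -1.90 ± 0.33 (SE), 3.72-fold lower, adjusted p = 4.3e-04), fell without overlap. 1 replication gene rose without M56H. Averaged over all its probe sets, the log2 difference was -1.05 for Cdc45.

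Promoters of mitosis genes often carry the cell cycle homology element, TTTGAA, bound by the DREAM complex in resting cells. RefSeq's GRCr8 windows from 250 bases before to 50 after the start were searched on both strands. This motif lay in 14 of the 21 mitosis genes with a window (66.7%) and in 4962 of all 27457 windows (18.1%). Among the 7 fallen mitosis genes with a window it lay in 5, and among the 14 that were not called in 9. The promoter of Ccnb2, shown as an example of a fallen gene with 2 matches, lies at chr8:79981609-79981908 on the minus strand; capitals mark the matches, and a match is a description of the letters only.
Ccnb2: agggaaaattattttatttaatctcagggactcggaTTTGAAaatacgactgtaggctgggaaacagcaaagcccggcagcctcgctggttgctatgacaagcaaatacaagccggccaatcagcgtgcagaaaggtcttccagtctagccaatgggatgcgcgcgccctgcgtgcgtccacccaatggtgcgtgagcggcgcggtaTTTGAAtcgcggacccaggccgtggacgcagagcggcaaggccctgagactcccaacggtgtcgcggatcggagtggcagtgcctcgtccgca

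Part of the genes induced by interferon fell as well. Of 24 measured members 12 fell and 0 rose (50% fell against 21.6% of all genes), with a median of -0.94 beside -0.12. The count ran from 10 to 15 as each array was left out and was 11 without the 4 marked arrays. Irf7, the regulator that amplifies type I interferon, read 6.15, 5.26, 5.08 and 5.59 against 9.21, 8.54, 6.85, 8.93 and 8.89. M56H was the lowest pregnant array for Irf7, and the groups did not overlap (log2 difference -2.96 ± 0.37 (SE), 7.8-fold lower, adjusted p = 3.3e-05). Usp18, which restrains interferon signalling, read 4.54, 4.73, 5.07 and 5.31 against 8.03, 6.87, 6.31, 7.64 and 7.96 (log2 difference -2.45 ± 0.32 (SE), 5.46-fold lower, adjusted p = 5.3e-05), and Ifit2, which blocks viral translation, read 5.39, 4.70, 4.64 and 5.19 against 7.91, 6.02, 6.16, 7.20 and 8.98 (log2 difference -2.27 ± 0.45 (SE), 4.84-fold lower, adjusted p = 0.0012). Ifit2 ran high in M60H, the array with the lymphocyte markers, at 8.98. Mx1, Oasl, Oas1a, Herc6, Rtp4, Cxcl10, Ifi44, Ifi44l and Ifit3 were the others that fell, with log2 differences of -2.07 to -0.64. Stat2, Isg15, Ifih1 and Bst2 lay between -0.46 and -0.25 and did not pass the test.

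The interferon-stimulated response element, searched as GAAANNGAA on both strands of the same windows, is the site that binds interferon-activated IRF and STAT complexes. It lay in 11 of the 17 interferon genes with a window (64.7%) and in 2608 of all 27457 windows (9.5%). Of the 9 fallen genes with a window 6 held it, and of the 8 that were not called 5 did. Irf7 (chr1:205799974-205800273, minus strand) and Oas1a (chr12:41330216-41330515, plus strand) are printed because both fell and hold the element, with matches in capitals; 2 matches overlap in Oas1a.
Irf7: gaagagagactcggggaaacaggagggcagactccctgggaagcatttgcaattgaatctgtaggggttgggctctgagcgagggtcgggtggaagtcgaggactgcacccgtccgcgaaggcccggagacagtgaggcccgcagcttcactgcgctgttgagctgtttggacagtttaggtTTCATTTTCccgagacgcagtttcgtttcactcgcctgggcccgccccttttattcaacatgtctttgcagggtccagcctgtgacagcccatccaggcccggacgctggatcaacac
Oas1a: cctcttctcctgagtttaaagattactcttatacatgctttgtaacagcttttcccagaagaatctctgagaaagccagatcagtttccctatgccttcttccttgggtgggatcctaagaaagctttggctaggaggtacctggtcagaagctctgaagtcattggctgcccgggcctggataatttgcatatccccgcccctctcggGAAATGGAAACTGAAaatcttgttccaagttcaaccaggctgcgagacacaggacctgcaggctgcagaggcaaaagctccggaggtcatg

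In all 5 pairs of a list and a motif were searched in these windows. The STAT site TTCNNNGAA, the same on both strands, lay in 3 of 6 milk protein genes (50%) and in 0 of the 11 involution and STAT3 genes with a window, against 2382 of all 27457 windows (8.68%). The sterol regulatory element TCACNCCAC lay in 0 of the 15 cholesterol synthesis genes with a window, against 310 of all windows (1.13%). Where a motif was not found, only these letters are missing from this window.

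Part of the antigen presentation genes fell too. Of 18 measured genes 9 fell (50% against 21.6% of all genes) and 0 rose (median -0.79). Of these 9 calls 8 held without each array in turn. 1 gene rose without M55H and 2 without M56H. Nlrc5, the transactivator of class I genes, read 4.08, 3.37, 4.10 and 4.21 against 6.97, 6.79, 5.47, 6.82 and 6.74 (log2 difference -2.62 ± 0.29 (SE), 6.14-fold lower, adjusted p = 1.2e-05), and Ciita, its class II counterpart, fell (log2 difference -1.87 ± 0.50 (SE), 3.65-fold lower, adjusted p = 0.0093). RT1-Db1, a class II beta chain, read 7.90, 7.88, 8.21 and 8.23 against 9.75, 9.67, 9.28, 9.80 and 9.79 (log2 difference -1.60 ± 0.24 (SE), 3.04-fold lower, adjusted p = 1.6e-04), with both groups tight. Macrophage markers went both ways. Cd14, the endotoxin co-receptor, read 12.18, 11.88, 10.89 and 11.44 against 10.23, 10.68, 9.59, 9.90 and 8.22 (log2 difference 1.87 ± 0.45 (SE), 3.66-fold higher, adjusted p = 0.0046), and the mannose receptor Mrc1 rose (log2 difference 0.80 ± 0.17 (SE), 1.74-fold higher, adjusted p = 0.0019), while Cd68, a lysosomal protein of macrophages, fell (log2 difference -1.63 ± 0.31 (SE), 3.1-fold lower, adjusted p = 0.001). Of 16 macrophage markers 2 rose (12.5% against 13.1% of all genes) and 5 fell (31.2% against 21.6%), with a median of -0.07. Only 3 fell without M203H or M59H. Of 11 T and B lymphocyte markers 4 fell and 0 rose (median -0.89), and 2 fell without each of M203H, M206H, M212H, M59H and M60H, while 1 rose without M55H. Only 1 lymphocyte marker fell without the 4 marked arrays. Cd3g, a chain of the T cell receptor complex, read 4.74, 5.21, 4.64 and 5.47 against 6.68, 8.02, 6.61, 7.53 and 9.93, the highest in M60H (log2 difference -2.74 ± 0.64 (SE), 6.67-fold lower, adjusted p = 0.004). The part of M60H's lymphocytes in the immune lists was not tested beyond leaving it out. The fit of the 9 arrays alone gave adjusted p of 0.058 for Ciita. The mean over all probe sets of a gene gave a log2 difference of -1.02 for Ciita.

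Chemokine calls went both ways, in shares near those of all genes, and only 3 calls, all falls, held without each array in turn. Cxcl13, which draws B cells, read 3.91, 4.94, 3.83 and 4.45 against 6.93, 7.04, 4.98, 8.19 and 9.71, with M60H highest (log2 difference -3.09 ± 0.78 (SE), 8.51-fold lower, adjusted p = 0.0066). Ccl11, which draws eosinophils (log2 difference -1.36 ± 0.28 (SE), 2.57-fold lower, adjusted p = 0.0015), and Cxcl11, an interferon-induced ligand of CXCR3 (log2 difference -1.69 ± 0.33 (SE), 3.23-fold lower, adjusted p = 0.001), fell without overlap. Of 19 measured chemokines 3 rose (15.8% against 13.1% of all genes) and 5 fell (26.3% against 21.6%), with a median of -0.26. In the fit of the 9 arrays alone 0 chemokines rose and 3 fell, and with a filter on low values 1 rose and 3 fell. The risen genes numbered 1 without M203H, M206H, M212H, M217H or M55H and 0 without M50H, M59H or M60H, and the fallen genes 3 without M206H, M50H or M59H. Sdc1, a syndecan of plasma cells and also of epithelium, was the 1 called gene of 6 plasma cell markers and rose (log2 difference 1.54 ± 0.30 (SE), 2.9-fold higher, adjusted p = 0.0011).

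Genes of involution and STAT3 signalling moved in both directions. Of 17 measured members 7 rose (41.2% against 13.1% of all genes) and 3 fell (1 without M203H or M50H), with a median of 0.34; without the 4 marked arrays 6 rose and 0 fell. Tgfb3, a growth factor known from milk stasis, read 9.65, 9.63, 8.85 and 10.31 against 7.53, 8.10, 6.78, 7.11 and 6.13 (log2 difference 2.48 ± 0.41 (SE), 5.57-fold higher, adjusted p = 3.3e-04). Ctsl, a lysosomal protease, read 10.69, 10.16, 10.04 and 10.13 against 7.78, 9.18, 8.14, 8.04 and 7.72 (log2 difference 2.08 ± 0.28 (SE), 4.23-fold higher, adjusted p = 6.5e-05). Lbp, an acute-phase protein that binds endotoxin, read 11.64, 11.49, 11.23 and 10.99 against 10.05, 9.92, 9.54, 9.84 and 9.02 (log2 difference 1.67 ± 0.30 (SE), 3.17-fold higher, adjusted p = 6.0e-04). The lactating arrays lay above the pregnant arrays for all 3, and the 7.53 to 8.06 range of the list level overlapped that of the pregnant arrays, 7.13 to 7.59. Stat3 itself was at a log2 difference of 0.87 and Socs3, its feedback inhibitor, at 0.06, and neither passed the test. Bcl3, a known STAT3 target, fell (log2 difference -1.83 ± 0.44 (SE), 3.56-fold lower, adjusted p = 0.0046). In the fit without the 4 marked arrays adjusted p became 0.068 for Bcl3.

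Related lists held further single changes. Ctsd, the aspartic protease of lysosomes, read 8.77, 9.03, 9.13 and 9.19 against 6.01, 7.69, 6.57, 5.56 and 4.32 (log2 difference 3.00 ± 0.48 (SE), 8.01-fold higher, adjusted p = 2.5e-04), and Cd63, a lysosomal membrane protein, rose (log2 difference 1.10 ± 0.29 (SE), 2.14-fold higher, adjusted p = 0.0093). Tfeb, the regulator of lysosome genes, fell (log2 difference -1.10 ± 0.22 (SE), 2.14-fold lower, adjusted p = 0.0013). Of 17 lysosomal genes 5 rose (29.4% against 13.1% of all genes) and 3 fell (17.6% against 21.6%), with a median of 0.15. Without the 4 marked arrays 3 lysosomal genes rose. Gadd45a, a stress and growth arrest gene, read 7.55, 7.92, 8.02 and 7.55 against 4.57, 5.36, 5.70, 4.42 and 3.88 (log2 difference 2.97 ± 0.31 (SE), 7.85-fold higher, adjusted p = 7.0e-06), and Bak1, which opens mitochondria in apoptosis, rose (log2 difference 1.15 ± 0.26 (SE), 2.22-fold higher, adjusted p = 0.0033), while Bid, its activator, fell (log2 difference -1.40 ± 0.30 (SE), 2.64-fold lower, adjusted p = 0.0021). Of 14 apoptosis genes 3 rose (21.4% against 13.1% of all genes) and 1 fell (7.14% against 21.6%), with a median of -0.11. Without the 4 marked arrays 1 apoptosis gene rose, and without M56H 3 fell. In the IGF axis, Igfbp3, a binding protein that holds IGF in the circulation, read 4.31, 4.53, 4.80 and 4.34 against 6.31, 7.20, 7.92, 7.07 and 6.40 (log2 difference -2.48 ± 0.28 (SE), 5.59-fold lower, adjusted p = 1.4e-05), and Igf2, a ligand, fell (log2 difference -1.64 ± 0.35 (SE), 3.13-fold lower, adjusted p = 0.002). Igfbp5, the binding protein linked with involution, rose (log2 difference 1.15 ± 0.20 (SE), 2.22-fold higher, adjusted p = 5.0e-04), as did Igf2r, which clears IGF2 (log2 difference 1.05 ± 0.17 (SE), 2.07-fold higher, adjusted p = 3.5e-04). Of 11 members 3 rose and 2 fell (median -0.16). Leaving out the 4 marked arrays gave adjusted p of 0.072 for Cd63 and 0.086 for Bak1. The mean over all probe sets of a gene gave a log2 difference of -0.54 for Bid, -1.48 for Igfbp3, -0.45 for Igf2 and 3.54 for Igfbp5.

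The matrix changed by component. Of 14 measured basement membrane genes 6 fell (42.9% against 21.6% of all genes) and 1 rose (7.14% against 13.1%), with a median of -0.71. All 6 falls held without each array. Lama1, a laminin alpha chain, read 4.18, 4.17, 4.25 and 5.10 against 7.67, 6.80, 4.60, 7.89 and 8.23 (log2 difference -2.62 ± 0.56 (SE), 6.13-fold lower, adjusted p = 0.0022). Lamb2, a laminin beta chain (log2 difference -1.63 ± 0.31 (SE), 3.11-fold lower, adjusted p = 9.8e-04), and Nid2, a linker protein (log2 difference -2.15 ± 0.46 (SE), 4.43-fold lower, adjusted p = 0.0022), fell too. M56H was the lowest pregnant array for Lama1 and Lamb2 and overlapped the lactating arrays in both. The risen gene was lost without M212H and without the 4 marked arrays, and joined by another without M56H. Fibrillar matrix went the other way, with Col1a1, the main collagen, at 11.20, 11.49, 11.86 and 11.39 against 10.87, 10.49, 11.10, 9.93 and 9.91 (log2 difference 1.03 ± 0.23 (SE), 2.04-fold higher, adjusted p = 0.003), and 6 of 22 members risen (3 without M212H) and 2 fallen (1 without M203H, M206H, M212H, M50H or M55H and 1 without the 4 marked arrays; median 0.32). Thy1, a fibroblast surface marker, fell (log2 difference -1.03 ± 0.17 (SE), 2.04-fold lower, adjusted p = 3.7e-04), but a second probe set of Thy1 was called the opposite way. Mmp9, a gelatinase, read 2.91, 2.47, 3.13 and 2.63 against 4.66, 6.38, 6.90, 5.67 and 4.42 (log2 difference -2.82 ± 0.38 (SE), 7.08-fold lower, adjusted p = 6.6e-05). Its inhibitor Timp1 read 8.95, 8.43, 8.59 and 8.05 against 6.82, 6.62, 6.61, 6.25 and 5.11 (log2 difference 2.22 ± 0.29 (SE), 4.67-fold higher, adjusted p = 4.6e-05), and Timp3 rose as well (log2 difference 1.76 ± 0.33 (SE), 3.38-fold higher, adjusted p = 8.7e-04). Mmp15, a membrane-bound protease, fell (log2 difference -1.42 ± 0.33 (SE), 2.68-fold lower, adjusted p = 0.0038). Of 21 proteases and inhibitors 6 rose (28.6% against 13.1% of all genes) and 3 fell (14.3% against 21.6%), with a median of -0.11. Without M56H 5 fell. Averaged over all its probe sets, the log2 difference was -1.56 for Mmp9.

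Epithelial markers changed singly. Prom1, a luminal surface protein, read 6.27, 7.16, 6.95 and 7.60 against 10.57, 9.67, 10.21, 10.73 and 10.62 (log2 difference -3.36 ± 0.35 (SE), 10.3-fold lower, adjusted p = 7.0e-06), and Kit, the receptor of luminal progenitors, read 6.69, 5.73, 4.22 and 5.78 against 3.20, 3.64, 4.07, 3.56 and 3.79 (log2 difference 1.95 ± 0.35 (SE), 3.87-fold higher, adjusted p = 5.7e-04). Of 16 luminal markers 6 rose and 3 fell (median 0.41), but 3 rose without M206H, M50H, M60H, M201S or M52S, 2 without M217H, 3 without the 4 marked arrays, and 1 fell without M50H. At the tight junctions, which seal milk in the lumen, Pard3, a polarity protein, rose (log2 difference 1.54 ± 0.19 (SE), 2.91-fold higher, adjusted p = 3.4e-05) and Cldn4, a claudin, rose (log2 difference 1.42 ± 0.36 (SE), 2.67-fold higher, adjusted p = 0.0063). Of 12 such genes 4 rose and 2 fell (median 0.26), and fewer fell (1 without M203H, M206H, M212H or M217H, 0 without M50H or M55H). Leaving out the 4 marked arrays left 2 risen. Among 14 myoepithelial markers, genes of the contractile cells that eject milk, Tagln rose (log2 difference 2.26 ± 0.47 (SE), 4.77-fold higher, adjusted p = 0.0019) and Acta2 rose (log2 difference 0.95 ± 0.26 (SE), 1.94-fold higher, adjusted p = 0.0093). In all 4 rose (2 without M206H, 2 without the 4 marked arrays) and 1 fell (0 without M203H, M50H, M59H or M60H; median 0.07). Without the 4 marked arrays adjusted p was 0.07 for Cldn4 and 0.07 for Acta2. Fitted on the 9 arrays alone, adjusted p was 0.054 for Acta2. With all probe sets of a gene averaged, the log2 difference was 0.61 for Pard3.

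Among stromal lists, adipocyte markers had 1 riser, Fabp4, the fatty acid binding protein of fat cells and capillaries (log2 difference 1.79 ± 0.50 (SE), 3.47-fold higher, adjusted p = 0.012), and 5 fallers of 17 (median -0.13). None of those 5 held without every array (0 fell without M203H, 1 without M50H, 2 without M206H or M59H, 3 without M212H or M55H, 1 without the 4 marked arrays), and a second riser came without M55H. Endothelial genes split, with Pecam1 at 11.01, 11.12, 11.16 and 11.08 against 8.37, 9.95, 10.47, 7.35 and 5.51 (log2 difference 2.76 ± 0.68 (SE), 6.77-fold higher, adjusted p = 0.0053), Eng up (log2 difference 1.28 ± 0.28 (SE), 2.42-fold higher, adjusted p = 0.0023), and Plvap (log2 difference -1.61 ± 0.37 (SE), 3.06-fold lower, adjusted p = 0.0036) and Tie1 (log2 difference -1.26 ± 0.36 (SE), 2.39-fold lower, adjusted p = 0.014) down. M59H and M60H were low for Pecam1 and M55H and M56H high, as for Stat5a. Of 12 endothelial markers 2 rose and 4 fell (2 without M203H, M212H, M50H or the 4 marked arrays; median -0.38). Of 17 skeletal muscle and 18 hepatocyte markers 0 were called in either direction by limma, and 0 had an unadjusted p under 0.05; Acta1 stood at 1.46, adjusted p = 0.18, Eno3 at -1.53, adjusted p = 0.13, Apoa1 at -1.23, adjusted p = 0.16 and Tat at -0.61, adjusted p = 0.16. For muscle 1 rose without M50H and 1 fell without M212H, M56H or the 4 marked arrays.

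Protein-making and energy lists moved little as wholes. Manf (log2 difference 1.75 ± 0.39 (SE), 3.36-fold higher, adjusted p = 0.0027) and Pdia4 (log2 difference 1.90 ± 0.38 (SE), 3.74-fold higher, adjusted p = 0.0013), a secreted factor and a disulphide isomerase of the endoplasmic reticulum, rose, and Asns, asparagine synthetase, fell (log2 difference -1.21 ± 0.26 (SE), 2.32-fold lower, adjusted p = 0.0022). Of 19 unfolded protein response genes 4 rose (7 without M56H) and 3 fell (median 0.30). Of 21 oxidative phosphorylation genes 6 rose, such as Sdhc of complex II (log2 difference 1.33 ± 0.27 (SE), 2.51-fold higher, adjusted p = 0.0016), and 7 fell (4 without M59H), such as Ndufs7 of complex I (log2 difference -1.54 ± 0.27 (SE), 2.91-fold lower, adjusted p = 5.2e-04), with a median of -0.17. Only 1 of these genes rose and 8 fell without the 4 marked arrays. Of 18 ribosomal protein genes 3 rose (16.7% against 13.1% of all genes) and 3 fell (16.7% against 21.6%), with a median of 0.17. Rpl4 was the only 1 of the 6 whose call held without each array (log2 difference -0.44 ± 0.09 (SE), 1.35-fold lower, adjusted p = 0.0022). The risen ribosomal genes numbered 5 without M55H or M56H, 1 without M203H and 0 without M206H, M212H, M217H, M50H, M59H or M60H, and the fallen 1 without M203H. Without the 4 marked arrays 0 ribosomal genes rose.

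Clock and stress genes had single large changes. Bhlhe41, a repressor of clock transcription, read 9.97, 9.35, 9.18 and 9.50 against 6.63, 5.47, 6.18, 7.59 and 7.51 (log2 difference 2.82 ± 0.43 (SE), 7.06-fold higher, adjusted p = 1.8e-04). Nr1d1, the REV-ERB repressor, read 5.35, 6.82, 5.74 and 4.73 against 7.14, 8.08, 6.39, 8.49 and 8.37 and fell (log2 difference -2.03 ± 0.55 (SE), 4.1-fold lower, adjusted p = 0.01), and Bmal1, which it represses, rose (log2 difference 1.06 ± 0.35 (SE), 2.08-fold higher, adjusted p = 0.031). Per1 (-0.60, adjusted p = 0.065) and Dbp (-0.79, adjusted p = 0.33) did not pass the test. Of 17 clock genes 2 rose (1 without M212H, M217H, M55H, M59H, M60H or the 4 marked arrays) and 2 fell (median -0.29), and the hours of collection were not given in the labels used here. Fos, an immediate early gene, rose (log2 difference 2.18 ± 0.44 (SE), 4.52-fold higher, adjusted p = 0.0014) with Klf4 (log2 difference 1.07 ± 0.25 (SE), 2.1-fold higher, adjusted p = 0.0038) and Klf6 (log2 difference 1.55 ± 0.42 (SE), 2.92-fold higher, adjusted p = 0.0093), whereas Ier2 fell (log2 difference -1.29 ± 0.23 (SE), 2.44-fold lower, adjusted p = 5.9e-04) and Myc fell (log2 difference -1.37 ± 0.33 (SE), 2.59-fold lower, adjusted p = 0.0044). That list of 13 had 3 risen and 3 fallen genes (median 0.46). Of 10 glucocorticoid response genes 2 fell and 0 rose (median -0.02), with 0 fallen without M203H, M60H or the 4 marked arrays and 1 without M212H, M217H, M50H or M59H. Leaving out the 4 marked arrays gave adjusted p of 0.092 for Bmal1, 0.05 for Klf6 and 0.069 for Myc. A fit of these 9 arrays alone gave 0.062 for Bmal1 and 0.062 for Klf6. Averaged over all its probe sets, the log2 difference was 1.16 for Fos. The call of Bmal1 ended without M212H (0.14), M217H (0.078), M55H (0.065), M59H (0.065) and M60H (0.053), adjusted p in parentheses.

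**Figure D3:**
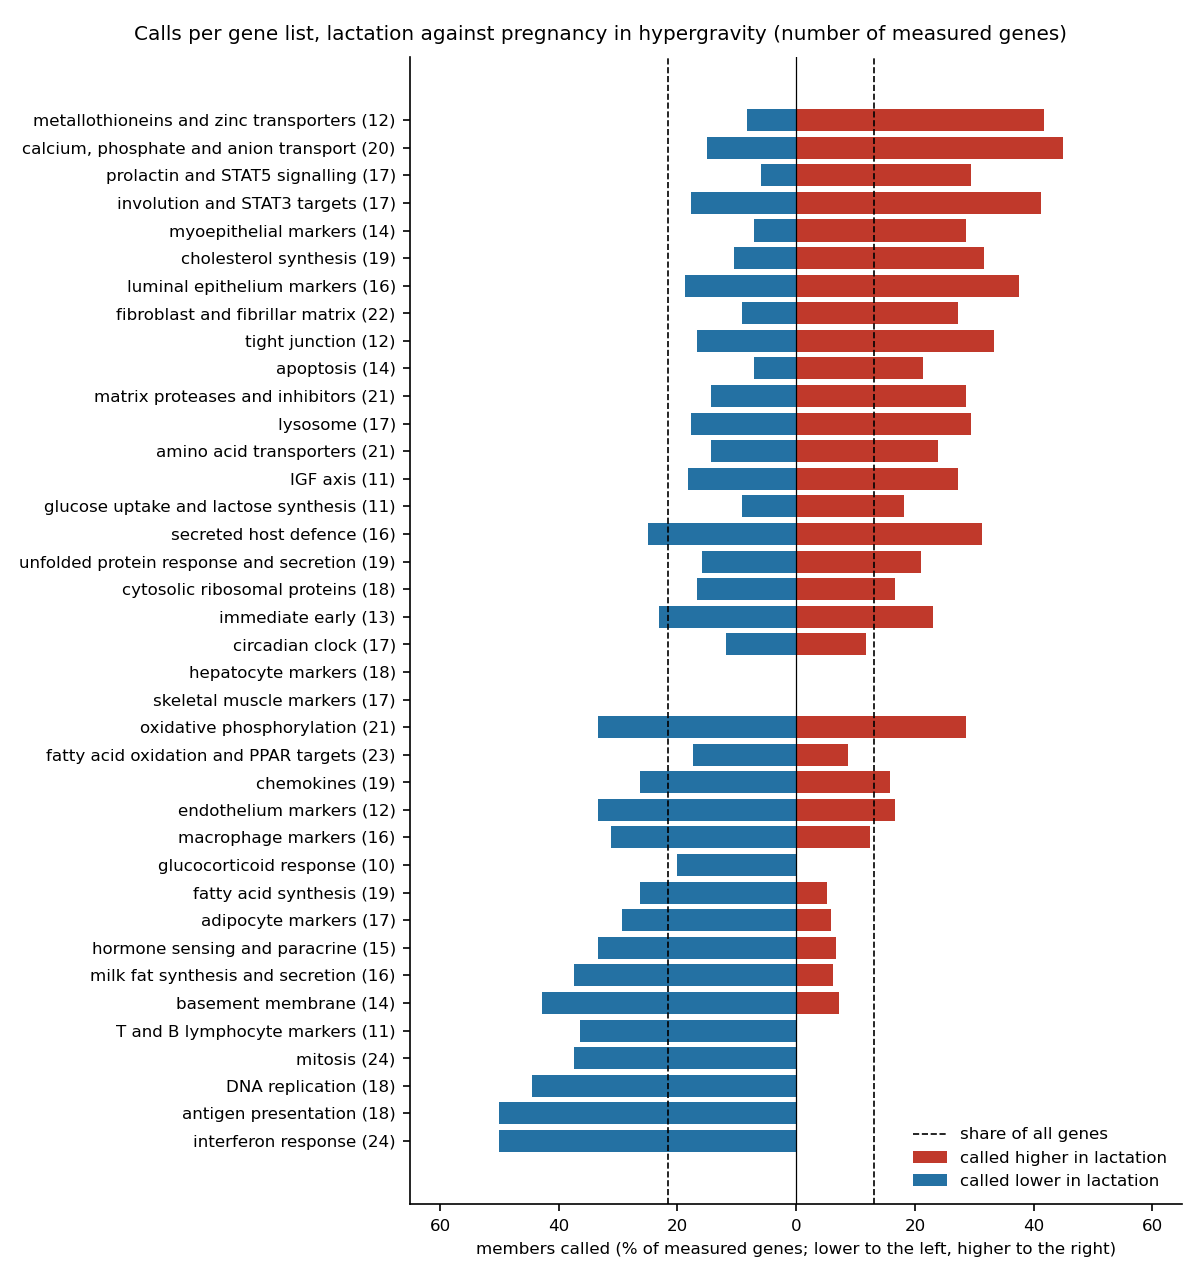
Share of measured genes called higher (red, to the right) or lower (blue, to the left) in lactation, for the 38 lists with at least 10 measured genes; dashed lines mark the shares of all genes, 13.1% higher and 21.6% lower. Interferon response and antigen presentation reach 50% lower with none higher, and calcium, phosphate and anion transport reaches 45% higher.

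The plot of calls per list orders the lists by the share higher minus the share lower. At its lower end lay interferon response, antigen presentation, DNA replication and mitosis, each with 0 members higher, and at its upper end zinc handling, ion transport, prolactin and STAT5 signalling, and involution and STAT3 targets.

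The same stage difference was then measured at standard gravity. There 1988 genes were higher in lactation (14%) and 3704 lower (26.1%). The 2 comparisons share no array, but they share 1 fit and its estimate of the spread. Across 14217 genes the 2 differences correlated at Pearson r = 0.69, given as a description since genes are not independent replicates. Of the genes higher in hypergravity, 1050 were higher at standard gravity too (56.3% of the hypergravity list and 52.8% of the standard gravity list). Of those lower, 2185 were lower in both (71.3% and 59%). The difference between the stage effects was tested with an interaction term, and 449 genes were more positive in hypergravity (3.16%) and 352 more negative (2.48%). Counted by probe set, 5205 were higher and 5376 lower at standard gravity and 1250 had a called interaction. Without the marked standard gravity arrays these counts were 1856, 2203 and 356.

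**Figure D4:**
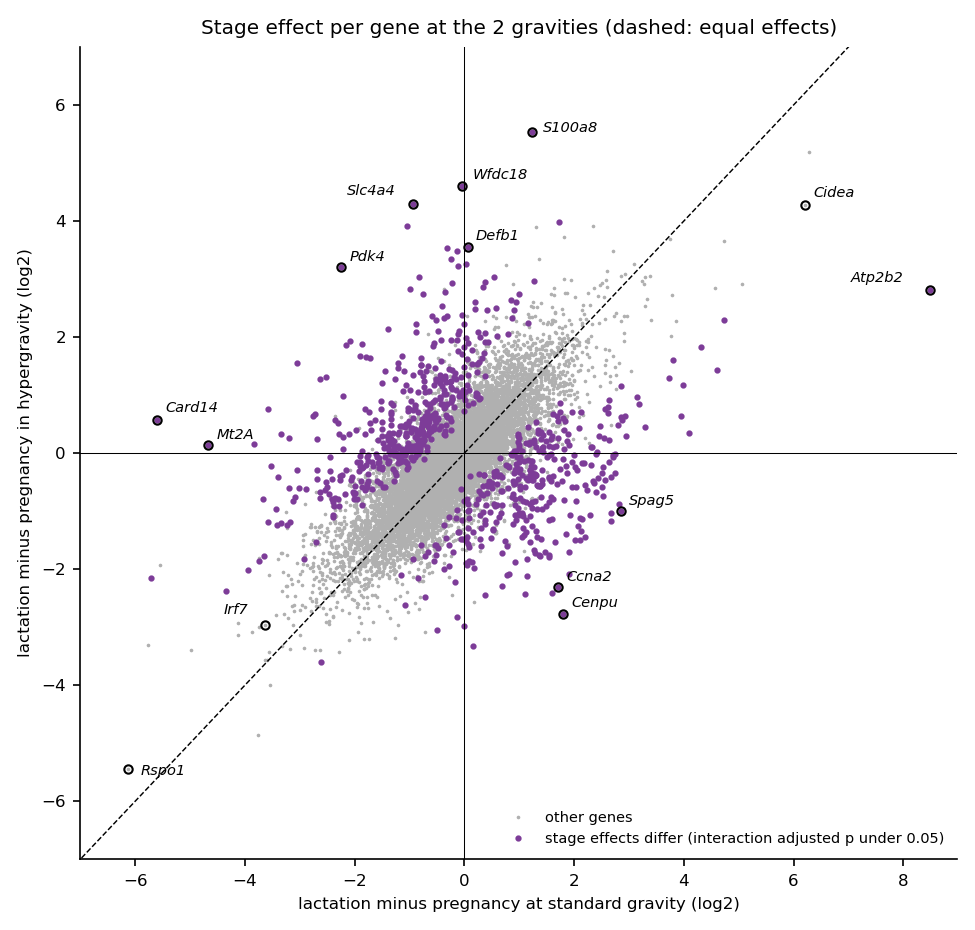
Log2 difference, lactation minus pregnancy, of 14217 genes at standard gravity (horizontal axis) and in hypergravity (vertical axis); purple points are the 801 genes whose stage effects differ by the interaction test, and the dashed line marks equal effects. Rspo1 and Irf7 lie near the line, Cenpu and Ccna2 below it, and Slc4a4, Wfdc18, Defb1, Pdk4 and S100a8 well above it.

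The plot of stage effects shows genes with like effects along the dashed line. Rspo1 fell by 6.13 on the log2 scale at standard gravity (interaction 0.69, adjusted p = 0.44), Slc30a2 by 3.64 (0.07, adjusted p = 0.96) and Irf7 by 3.63 (0.67, adjusted p = 0.63). Lao1 rose by 6.29 there (-1.10, adjusted p = 0.35) and Cidea by 6.21 (-1.94, adjusted p = 0.079). For these 5 genes the difference between gravities did not pass the test. A p above the threshold does not show equal effects.

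The stage difference of cell division genes differed between the gravities. Of all genes 14% rose and 26.1% fell at standard gravity, 3.16% had a positive interaction and 2.48% a negative one. At standard gravity 19 of the 24 mitosis genes rose and 0 fell (median 1.56), against 0 and 9 in hypergravity, and the interaction was called negative for 19 (10 without the 4 marked arrays, 9 without the marked standard gravity arrays) and positive for 0. Of the 18 replication genes 12 rose and 1 fell at standard gravity (median 1.13), with 13 negative interactions (12 without the 4 marked arrays). Without the marked standard gravity arrays 6 replication genes rose there and 7 interactions were negative. Cenpu read 7.82, 9.46, 8.06, 7.51 and 8.03 in the lactating and 5.43, 6.69, 6.37, 6.48 and 6.97 in the pregnant standard gravity arrays (log2 difference 1.79, adjusted p = 0.0013; interaction -4.56, adjusted p = 1.3e-04). The pregnant arrays of both gravities overlapped for Cenpu. At standard gravity the lactating arrays lay above the pregnant arrays of that gravity, though not above every pregnant hypergravity array. In hypergravity the lactating arrays lay below the pregnant arrays of both gravities. Ccna2 (-4.01, adjusted p = 0.0023), Spag5 of the spindle (-3.85, adjusted p = 1.0e-04), E2f8, an E2F repressor (-4.00, adjusted p = 2.2e-04), and Pclaf, a clamp-binding factor (-4.00, adjusted p = 0.012), had the same sign. Without the marked standard gravity arrays the interaction stayed called for these 5 genes, and the rise of Ccna2 at standard gravity had an adjusted p of 0.071. The mitosis list averaged 4.29 to 5.51 in lactating and 5.51 to 6.04 in pregnant hypergravity arrays, and 6.59 to 8.48 and 5.45 to 6.13 at standard gravity.

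**Figure D5:**
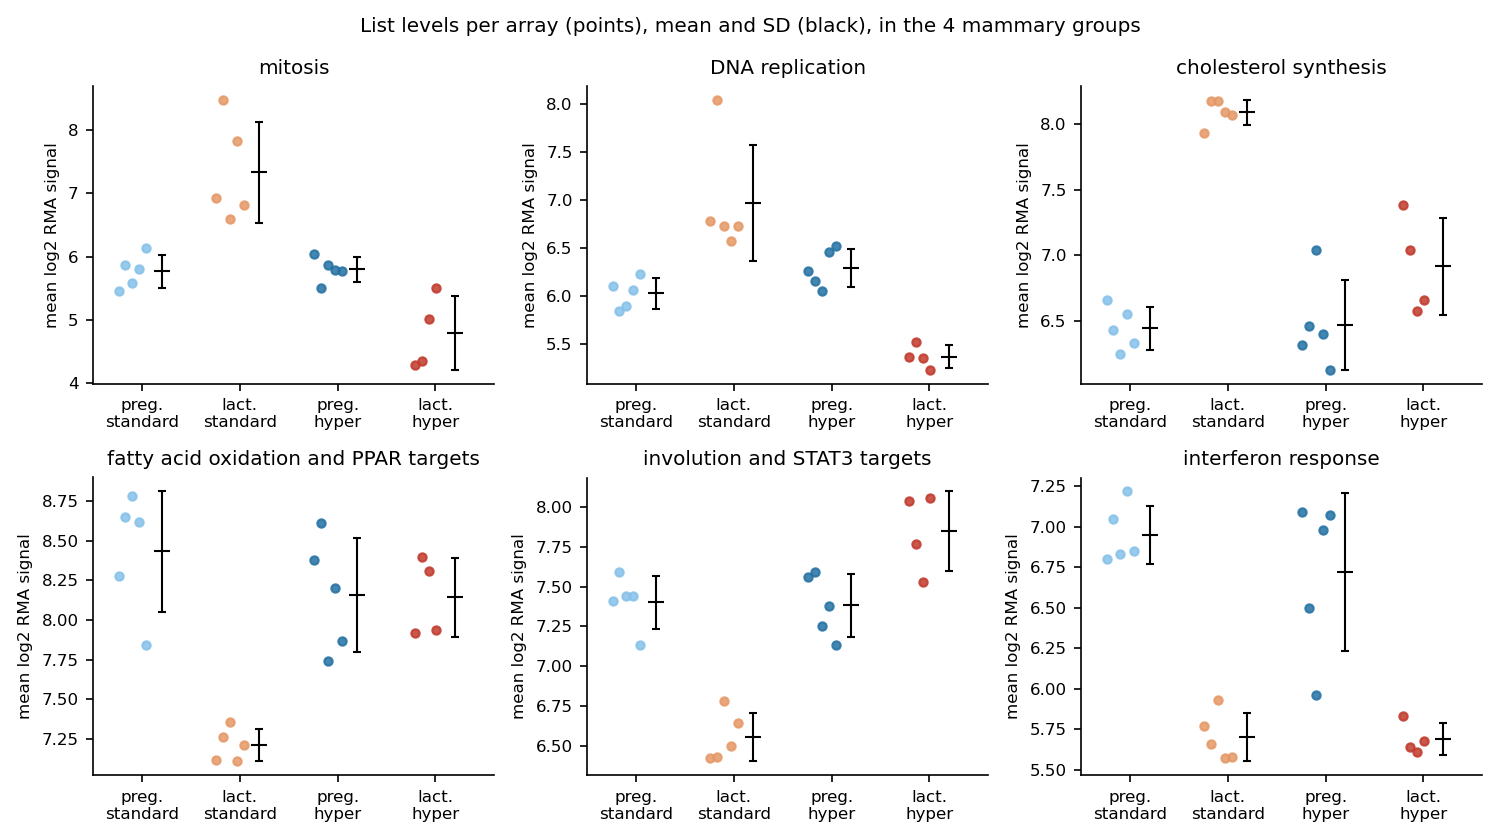
Mean log2 RMA signal of 6 gene lists (vertical axes, each with its own range) in the 4 mammary groups; points are arrays, black bars the mean and SD. Mitosis and DNA replication are highest in lactation at standard gravity and lowest in lactation in hypergravity, while the interferon response is low in both lactating groups.

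The plot of list levels by group shows 4 further lists, and fatty acid synthesis, which is not plotted, is given beside them. The shares of all genes were 14% risen and 26.1% fallen at standard gravity. For interactions they were 3.16% positive and 2.48% negative. Cholesterol synthesis had 13 risen and 0 fallen genes at standard gravity (median 1.53) against 6 and 2 here, with 5 negative interactions (3 without the marked standard gravity arrays), among them Stard4 (-2.14, adjusted p = 4.1e-04). Fatty acid synthesis had 9 risen and 2 fallen genes there against 1 and 5 here, with 4 negative interactions, the risen genes there numbered 2 and the interactions 0 without the marked standard gravity arrays, and the fallen genes there numbered 1 without M201S, M214S, M216S, M48S, M52S or M57S and 0 in that same setting. Fatty acid oxidation and PPAR targets had 0 risen and 14 fallen genes there against 2 and 4 here, with 8 positive interactions, and 1 rose there without M60H. Pdk4 read 5.41, 5.35, 6.72, 4.32 and 4.63 against 6.75, 9.14, 8.27, 7.50 and 6.04 at standard gravity, where it fell (log2 difference -2.25, adjusted p = 0.0035; interaction 5.46, adjusted p = 6.0e-04), with an adjusted p of 0.054 for that fall without the marked standard gravity arrays. Involution and STAT3 targets had 0 risen and 8 fallen genes there against 7 and 3 here, with 8 positive interactions (5 without the 4 marked arrays). Without the marked standard gravity arrays 5 fell there and 4 interactions were positive. Lbp read 7.59, 7.49, 9.01, 8.28 and 8.11 against 10.02, 10.70, 9.88, 10.04 and 9.38 at standard gravity (log2 difference -1.91, adjusted p = 6.3e-05; interaction 3.58, adjusted p = 1.0e-04). Its direction was opposite at the 2 gravities, with no overlap of stages at either. The interferon list had 14 fallen (9 without the marked standard gravity arrays) and 0 risen genes at standard gravity and 0 called interactions in either direction by limma (1 positive without M214S). At an unadjusted p under 0.05 that interaction was positive for 3 and negative for 2 interferon genes. By the same unadjusted limit 0 mitosis, replication, interferon or glucocorticoid genes and 1 each of the antigen presentation and lymphocyte genes were higher in hypergravity lactation. At standard gravity it gave 0 lower genes for mitosis and cholesterol synthesis, 1 higher for fatty acid oxidation, and 0 higher for involution and interferon.

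Single genes with large interactions had several roles, ion transport and secretion among them. Slc4a4 did not pass the test at standard gravity (log2 difference -0.93, adjusted p = 0.14; interaction 5.23, adjusted p = 2.0e-04). Wfdc18 (-0.05, adjusted p = 0.96 there; interaction 4.67, adjusted p = 0.0054), Defb1 (0.06, adjusted p = 0.93; 3.50, adjusted p = 7.4e-04) and S100a8 (1.24, adjusted p = 0.052; 4.30, adjusted p = 0.0015) rose in hypergravity without a called change at standard gravity. Mt2A read 7.37, 9.06, 9.35, 6.39 and 7.37 in lactation and 12.53, 12.62, 12.67, 12.47 and 12.60 in pregnancy at standard gravity and was not called in hypergravity (interaction 4.81, adjusted p = 2.0e-04). Card14, an adaptor of NF-kappaB signalling, fell at standard gravity (-5.61, adjusted p = 8.6e-06) and was not called in hypergravity (0.57, adjusted p = 0.59; interaction 6.17, adjusted p = 0.0012). Atp2b2 rose at both gravities, by 2.81 here and by 8.48 at standard gravity (interaction -5.67, adjusted p = 3.8e-04). Its lactating arrays read 11.66, 11.15, 11.25, 11.36 and 11.45 at standard gravity, all above the 4 hypergravity values given earlier. Cd14 (-2.16, adjusted p = 7.5e-04 there; interaction 4.03, adjusted p = 9.4e-04) and Timp1 (-0.01, adjusted p = 0.98; 2.23, adjusted p = 0.0029) were also more positive in hypergravity. Without the marked standard gravity arrays the interaction was not called for Wfdc18 (adjusted p = 0.097) or Timp1 (0.078).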

How the data were processed

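Per the labels' protocols, TRIzol was used to extract mammary RNA, which a NuGEN Ovation Biotin kit then amplified. The authors deposited 1 table of log2 signals for 31042 probe sets on 72 Affymetrix rat arrays, made with RMA per the submitters' processing notes, and RMA subtracts background, normalizes between arrays by quantiles and summarises probes. Its version and the arrays normalized together were not given in the sources used here. All columns mapped to samples, with 0 unused. Quantile normalization can hide a shift shared by most genes and compresses the brightest signals.

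Groups came from the labels. Differences were fitted with limma 3.58.1 in R 4.3.3 (lmFit, eBayes, group means) over 19 mammary arrays in 4 groups, with M210H left out and 15 residual degrees of freedom. P-values were adjusted by Benjamini and Hochberg over all probe sets. Symbols came from GEO's platform annotation, with 1 symbol for 20826 probe sets, several for 436 and none for 9780. Names, positions and promoters came from RefSeq (GRCr8), which matched 20758 of the single-symbol probe sets. Of 741 members of 42 gene lists 666 were measured. Among 4525 genes with several probe sets, 1821 were called, 576 of these with another probe set called the same way and 160 with one called the opposite way.

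The rule for named genes took, among called genes whose groups did not overlap and whose higher group mean was at least 6, the 12 largest rises and 12 largest falls. To these it added up to 3 called members a direction of each list (2 by smallest p where none was called), 13 fixed genes, and the 6 largest interactions a direction. It gave 204 genes. Of the 189 called among them, 134 stayed called without each array; the text gives mainly these, a choice made after seeing the values. Members and lists were chosen with earlier results of these data known. The fit was tested first on simulated data with normal noise and the same spread in all 4 groups. That test does not cover the unequal spreads or the marked arrays of the real data. Alternatives were M210H kept, the 2 groups alone, array weights, a prior with trend, with and without robust fitting, a filter on low values, renormalization, centring, probe set means, and arrays left out singly or, chosen after seeing the data, 4 together.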

Additional observations from a re-analysis of the deposited data

Results flagged for a closer look

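Among the named genes, 408 gene and group values were examined for a single array far from the rest of its group, which chance alone finds in about 1 of 20 groups, and 32 were found. Each is given with the log2 gap to the nearest array of its group and the range of the other arrays. In each, that gap took up most of the range of the group. M56H, a pregnant array, was low for Acaca (gap 0.87, others 10.62 to 10.88), Cd68 (gap 1.41, others 8.77 to 9.24), Drd4 (gap 2.30, others 6.66 to 7.49), Irf7 (gap 1.69, others 8.54 to 9.21), Lamb2 (gap 1.62, others 9.59 to 9.77), Mcm7 (gap 0.90, others 9.11 to 9.26), Nlrc5 (gap 1.27, others 6.74 to 6.97), RT1-Db1 (gap 0.39, others 9.67 to 9.80), Tecpr1 (gap 2.42, others 8.38 to 9.25) and Zbtb40 (gap 1.87, others 9.88 to 10.43). M217H, a lactating array, was high for Cldn4 (gap 0.48, others 7.94 to 8.01), Lama1 (gap 0.85, others 4.17 to 4.25), Rpl4 (gap 0.13, others 12.19 to 12.21) and Timp3 (gap 0.61, others 9.90 to 9.94). M212H, a lactating array, was high for Car6 (gap 1.62, others 7.30 to 7.57), Eno3 (gap 3.41, others 4.06 to 4.31) and Slc2a1 (gap 0.63, others 11.34 to 11.38). M56H, a pregnant array, was high for Apoa1 (gap 4.05, others 3.45 to 4.04), Igf2r (gap 0.74, others 6.53 to 6.80) and Tat (gap 1.93, others 2.79 to 3.11). M212H, a lactating array, was low for Igfbp5 (gap 0.43, others 10.36 to 10.44) and Insig1 (gap 0.55, others 10.60 to 10.64). M50H, a pregnant array, was high for Acta1 (gap 3.72, others 4.92 to 6.10) and Fbln1 (gap 0.38, others 3.69 to 3.82). M55H, a pregnant array, was high for Ctsl (gap 1.04, others 7.72 to 8.14) and Folr1 (gap 2.04, others 3.10 to 3.52). M60H, a pregnant array, was low for Mt2A (gap 0.80, others 12.42 to 12.61) and Saa3 (gap 1.87, others 10.41 to 11.05). M203H, a lactating array, was high for Ccl2 (gap 2.06, others 5.49 to 5.91). M203H, a lactating array, was low for Mrc1 (gap 0.67, others 10.87 to 10.99). M206H, a lactating array, was low for Nlrc5 (gap 0.70, others 4.08 to 4.21). M59H, a pregnant array, was high for Pgr (gap 0.54, others 2.77 to 2.88). M56H holds the hepatocyte markers and M50H and M212H the muscle markers, and the part of those in the values above was not tested.

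The stage difference was called as differing between hypergravity and standard gravity (limma interaction term) for 46 of the named genes. Each value is the hypergravity difference minus the standard gravity difference, on the log2 scale, followed by those 2 differences in that order. The interaction was negative for Atp2b2 (-5.67, from 2.81 and 8.48), Cenpu (-4.56, from -2.77 and 1.79), Ccna2 (-4.01, from -2.31 and 1.70), E2f8 (-4.00, from -2.09 and 1.90) and Pclaf (-4.00, from -2.41 and 1.59). It was also negative for Spag5 (-3.85, with 2.85 at standard gravity), Ccnb2 (-2.97, from -1.83 and 1.14), Cdc45 (-2.81, from -1.88 and 0.93), Acaca (-2.73, from -1.53 and 1.20) and Mmp9 (-2.70, from -2.82 and -0.13). Values that were negative followed for Hsd17b7 (-2.51, from -1.42 and 1.09), Stard4 (-2.14, from -0.75 and 1.39), Fads1 (-2.10, from -1.22 and 0.88), Slc27a3 (-2.04, from -2.22 and -0.18) and Rfc4 (-1.92, from -1.90 and 0.03). Further negative values were those of Igfbp3 (-1.77, from -2.48 and -0.71), Gpat4 (-1.73, from -1.10 and 0.63), Nlrc5 (-1.54, from -2.62 and -1.08) and Atp6v1c2 (-0.99, from -3.60 and -2.61). The interaction was positive for Card14 (6.17, from 0.57 and -5.61), Pdk4 (5.46, from 3.20 and -2.25), Slc4a4 (5.23, from 4.30 and -0.93), Gpr15lg (4.96, from 3.92 and -1.04) and Mt2A (4.81, from 0.14 and -4.67). It was also positive for Wfdc18 (4.67, from 4.61 and -0.05), S100a8 (4.30, from 5.54 and 1.24), Cd14 (4.03, from 1.87 and -2.16), Bhlhe41 (3.82, with 2.82 in hypergravity) and Lbp (3.58, from 1.67 and -1.91). Values that were positive followed for Defb1 (3.50, from 3.56 and 0.06), Slc1a1 (3.23, from 3.26 and 0.02), Krt7 (2.77, from 1.56 and -1.21), S100a9 (2.68, from 2.36 and -0.32) and Cldn4 (2.53, from 1.42 and -1.11). Further positive values were those of Clu (2.48, from -0.97 and -3.44), Tgfb3 (2.29, from 2.48 and 0.19), Car6 (2.26, from 3.98 and 1.72), Timp1 (2.23, from 2.22 and -0.01) and Kit (2.20, from 1.95 and -0.25). Smaller positive values were those of Igf1r (1.88, from 0.90 and -0.98), Ctsl (1.84, from 2.08 and 0.24), Gadd45a (1.72, from 2.97 and 1.26), Igfbp5 (1.56, from 1.15 and -0.41) and Slc39a1 (1.37, from 1.13 and -0.24). Smaller positive values were those of Pard3 (1.31, from 1.54 and 0.23) and Mrc1 (0.99, from 0.80 and -0.19). The interaction call ended when single arrays were left out as follows. It ended for Atp6v1c2 when any of M203H, M217H, M55H, M59H, M202S, M214S, M216S, M219S, M44S, M52S or M57S was left out (adjusted p 0.054 to 0.087). It ended for Car6 when any of M206H, M212H, M50H, M59H, M60H, M201S, M202S, M216S, M42S, M44S, M48S or M52S was left out (adjusted p 0.053 to 0.078). It ended for Gadd45a when any of M206H, M212H, M59H, M201S, M44S or M52S was left out (adjusted p 0.051 to 0.061). The call was lost for Gpr15lg when any of M203H, M212H, M217H, M56H, M59H, M60H, M201S, M202S, M214S, M216S, M219S, M42S, M44S, M48S or M52S was left out (adjusted p 0.054 to 0.1). The call was lost for Krt7 when any of M206H, M217H, M59H, M60H, M201S, M202S, M214S, M216S, M219S, M42S, M44S, M48S or M52S was left out (adjusted p 0.057 to 0.079). The call was lost for Nlrc5 when any of M203H, M206H, M50H, M59H, M60H, M201S, M202S, M219S, M44S, M52S or M57S was left out (adjusted p 0.052 to 0.083). The call was lost for S100a9 when any of M203H, M206H, M201S, M202S, M42S, M44S, M48S or M52S was left out (adjusted p 0.051 to 0.075). The call was lost for Slc27a3 when any of M203H, M217H, M59H, M201S, M214S, M216S, M219S, M44S, M48S or M52S was left out (adjusted p 0.051 to 0.07). Loss was seen for Tgfb3 when any of M203H, M206H, M217H or M44S was left out (adjusted p 0.053 to 0.068). With M56H, M50H, M212H and M60H left out together, adjusted p of the interaction was above the threshold for Car6 (0.17), Ctsl (0.088), Gadd45a (0.055), Gpr15lg (0.069), S100a9 (0.072) and Tgfb3 (0.076). With M52S, M57S, M219S and M44S left out together, which leaves 2 pregnant arrays at standard gravity, it was above the threshold for 28 of them, namely Acaca (0.081), Atp6v1c2 (0.38), Car6 (0.11), Ccnb2 (0.087), Cdc45 (0.077), Cldn4 (0.065), Ctsl (0.067), Fads1 (0.13), Gadd45a (0.21), Gpat4 (0.072), Gpr15lg (0.092), Hsd17b7 (0.053), Igf1r (0.072), Igfbp3 (0.12), Igfbp5 (0.06), Kit (0.08), Krt7 (0.16), Mmp9 (0.079), Mrc1 (0.16), Nlrc5 (0.37), Rfc4 (0.21), S100a9 (0.12), Slc1a1 (0.091), Slc27a3 (0.28), Slc39a1 (0.14), Tgfb3 (0.23), Timp1 (0.078) and Wfdc18 (0.097). Both settings were chosen after seeing the data.

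M210H, labelled as a lactating mammary array in hypergravity, entered no main comparison. Its milk protein genes averaged 3.11 and its adipocyte markers 10.16 on the log2 scale.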

How the results depend on the processing

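No paired analysis was possible because the groups compared share no rat code. In the main fit 4540 probe sets were higher and 4540 lower in lactation in hypergravity. Fitted on the 9 arrays alone, with a spread estimated from these 2 groups only, the counts were 2989 and 2934, and 61 of the named genes were no longer called. Leaving out each array in turn gave 3621 to 5589 higher and 3505 to 5893 lower probe sets, lowest without M203H and highest without M56H. The interaction was called for 1250 probe sets, 925 to 1600 with an array left out, 1996 with array weights and 788 with M210H kept in its labelled group. Without M56H, M50H, M212H and M60H, a setting chosen after seeing the data, the counts were 3868 higher, 4149 lower and 1243 interactions, and 52 named genes lost their call. Without M52S, M57S, M219S and M44S, chosen likewise and leaving 2 pregnant arrays at standard gravity, the interaction count was 356, the counts at standard gravity were 1856 higher and 2203 lower against 5205 and 5376, and 18 named genes lost their call in hypergravity. Of the 84 counts of list members, 33 moved by over 1.5 times with the 9 arrays alone, 25 without M56H, M50H, M212H and M60H, 19 with M210H kept, 13 with array weights, 11 without M52S, M57S, M219S and M44S, and 9 with the filter on low values. Without those 4 standard gravity arrays there were 2 risen luminal markers, 0 risen ribosomal genes, 1 risen chemokine and 2 fallen endothelial markers.

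Signs that turned were as follows, and the cause was not tested. With M210H in the lactating group, log2 differences became -0.14 for Acta2, -0.27 for Actg2, -0.51 for Card14, -1.98 for Csn2, -0.70 for Lalba, -0.04 for Mt2A, -0.24 for Prlr and -0.11 for Saa3. Averaged over all probe sets of a gene they became 0.22 for Cp, 0.06 for Myh11, 0.01 for Slc6a6, 0.17 for Stim1 and 0.21 for Thy1, and none of these 5 was called there. With each array centred on its median Csn1s1 stood at 0.00 and Wap at 0.01. Csn2 stood at -0.04 without M56H, M50H and M212H. Without these and M60H, Csn1s1 stood at 0.04, Mt2A at -0.06 and Prlr at -0.37. With single arrays left out Csn1s1 ran from -0.07 to 0.03, Csn2 from -0.01 to 0.09, Mt2A from -0.03 to 0.37, Prlr from -0.07 to 0.76 and Wap from -0.06 to 0.03. None of these 5 was called in any of them. The number of arrays limits the precision, and signals near the lowest or highest values of the arrays bound what can be read.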
